A study of Mus musculus with 25 samples.

Results

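The bHLH transcription factor genes Twist1, Twist2, Tcf21, Tcf15, Msc, Hand1, Hand2, Mesp1, Mesp2 and Scx, all known from mesoderm and its derivatives, were followed through 12 peak lists of the repressive histone mark H3K27me3 in regenerating mouse muscle. These 10 genes were chosen by name, and a peak was counted for a gene when the authors had assigned it to that symbol. Of the 10 genes, 8 had a peak in at least 1 list, and 5469 autosomal genes had a peak in any list. The 10 genes held 259 of the 30979 autosomal peaks.

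Chromatin immunoprecipitation sequencing (ChIP-seq) had been done on Dendra2+ myofibers dissected from tibialis anterior at 14 days post injury (dpi). All mice, controls included, carried a mito-Dendra2 reporter switched on by Pax7-Cre(ERT2), which acts in muscle stem cells, so that fibers formed from those cells were marked. All received tamoxifen at 75 mg/kg daily for 5 days and, after 2 further days, 50 µL of 1.2% BaCl2 into the muscle. The 4 genotypes were wild-type, mfn2-/- (lacking the mitochondrial fusion protein mitofusin 2), vhl-/- (lacking the ubiquitin ligase subunit that recognises HIF1α) and HIF1dPA (expressing a proline-to-alanine HIF1α that VHL cannot recognise), with 3 libraries each. Strain, sex and age were not given in the sources used here. The paper's legends give 3 mice per group for wild-type and mfn2-/-, and 3 biological replicates for each ChIP-seq set. The p-values measure only the spread between these libraries. The comparison of genotypes asks whether the repressive marks of regenerating fibers differ when mitofusin 2 is lost or HIF1α is stabilised.

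The proteins of this family bind DNA as pairs, mostly with a ubiquitous E-protein, at the short E-box motif. Twist1 and Twist2 hold mesenchymal cells in an undifferentiated state and can block myogenic bHLH factors, Tcf21 and Msc act in the progenitors of facial and branchial muscle, Hand1 and Hand2 pattern heart and limb, Mesp1 and Mesp2 act in early mesoderm and in somite segmentation, Tcf15 in somites, and Scx in tendon. H3K27me3 is set by Polycomb repressive complex 2, typically over broad stretches around silent developmental genes with CG-rich promoters.

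The promoters of the members with the most to show are given here because peaks are described further on by their place beside them. The peaks lie beside the windows of Twist1 and Twist2, touch that of Hand2 in 1 list and reach that of Tcf21 in 3 lists. Each runs 5′ to 3′ from 250 bases before to 50 bases after the RefSeq start site in GRCm38.p6 (the assembly also called mm10), with every CG dinucleotide in capitals. The windows are chr12:33957421-33957720 on the plus strand (Twist1), chr1:91801211-91801510 on the plus strand (Twist2), chr8:57320733-57321032 on the plus strand (Hand2) and chr10:22820094-22820393 on the minus strand (Tcf21).
Twist1 promoter: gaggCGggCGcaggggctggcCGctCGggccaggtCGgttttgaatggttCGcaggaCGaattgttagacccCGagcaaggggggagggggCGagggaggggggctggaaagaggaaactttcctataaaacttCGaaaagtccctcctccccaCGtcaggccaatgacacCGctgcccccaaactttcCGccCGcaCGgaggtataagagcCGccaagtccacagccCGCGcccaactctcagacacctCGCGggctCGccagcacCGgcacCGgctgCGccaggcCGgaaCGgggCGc
Twist2 promoter: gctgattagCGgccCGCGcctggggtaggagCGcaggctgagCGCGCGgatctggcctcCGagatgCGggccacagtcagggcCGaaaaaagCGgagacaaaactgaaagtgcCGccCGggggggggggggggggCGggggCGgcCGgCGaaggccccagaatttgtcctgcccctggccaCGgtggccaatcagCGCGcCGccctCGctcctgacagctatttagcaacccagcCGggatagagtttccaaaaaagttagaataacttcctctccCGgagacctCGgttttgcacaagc
Hand2 promoter: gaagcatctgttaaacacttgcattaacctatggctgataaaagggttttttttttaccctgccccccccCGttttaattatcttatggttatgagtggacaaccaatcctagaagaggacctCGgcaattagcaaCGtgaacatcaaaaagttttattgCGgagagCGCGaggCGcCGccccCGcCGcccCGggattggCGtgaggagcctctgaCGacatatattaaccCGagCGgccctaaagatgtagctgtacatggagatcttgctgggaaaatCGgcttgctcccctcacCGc
Tcf21 promoter: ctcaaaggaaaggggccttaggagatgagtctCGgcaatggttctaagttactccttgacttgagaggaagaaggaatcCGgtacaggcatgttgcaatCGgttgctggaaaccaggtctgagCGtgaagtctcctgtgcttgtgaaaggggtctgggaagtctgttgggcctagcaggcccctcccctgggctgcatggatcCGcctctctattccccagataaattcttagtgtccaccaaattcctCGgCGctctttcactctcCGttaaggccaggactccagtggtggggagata
They held 27 CG dinucleotides at Twist1, 25 at Twist2, 17 at Hand2 and 8 at Tcf21, beside a median of 7 over the 32851 promoters of the table. As many as 27 were found in 15.5% of all promoters, and as many as 8 in 48.7%. The E-box CANNTG, which reads the same on both strands, was absent from the windows of Twist1, Twist2 and Tcf21 and occurred at 2 places in that of Hand2, while 72.3% of all promoters held at least 1. Mesp1 and Mesp2, whose windows hold 4 and 10 CG dinucleotides, had few or no peaks, and the remaining members were not in the table. Peak number did not follow CG number among these members. Over the 12 lists Tcf21 had 78 peaks, Hand2 76, Twist1 63 and Twist2 8.

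The lists differed in length before any gene was looked at. Autosomal H3K27me3 peaks numbered 3541 ± 192 (mean ± SD, n = 3) for wild-type, 2457 ± 116 for mfn2-/-, 3841 ± 200.5 for vhl-/- and 488 ± 11.9 for HIF1dPA. Peaks on X were 30.2% ± 0.118 of the mfn2-/- lists and at most 1.24% of any other list, so tests used autosomes, where all 10 genes lie. Read totals are not in the lists, so depth is unknown, and a shorter list cannot be told apart from a lower level of the mark. Because fibers were used in bulk, the mark in fewer nuclei and less of it per nucleus cannot be told apart either. None of 10 fast-fiber genes, among them Acta1 (skeletal actin), Ckm (muscle creatine kinase) and Ttn (titin), had a peak. Of 8 genes that mark endothelial, immune and fibroblast-like cells, Pdgfra had a peak in 9 lists and Ptprc in 1.

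Twist1, Tcf21, Hand1 and Hand2 had a peak in all 9 wild-type, mfn2-/- and vhl-/- lists, Twist2 in every wild-type list but in no mfn2-/- list, and Tcf15, Msc and Mesp1 in 1 or 2 lists of the 12. Mesp2 and Scx had none. A list held 5.67 ± 1.15 of the 10 genes in wild-type (n = 3 here and below), 4.67 ± 0.577 in mfn2-/-, 5 in each vhl-/- list and 2.33 ± 0.577 in HIF1dPA. The same lists held 35.3% ± 1.53, 23.8% ± 1.28, 36.0% ± 1.66 and 7.79% ± 0.0838 of the 5469 genes, so the HIF1dPA lists were short of peaks at genes in general. A peak in all 9 lists was seen for 6.69% of all genes (366), 4 of the 10 members among them. Of those 366 genes, 10.4% had a peak in all 3 HIF1dPA lists, as Twist1 had, and 71% had one in at least 1, as did all 4 of these members.

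**Figure D1:**
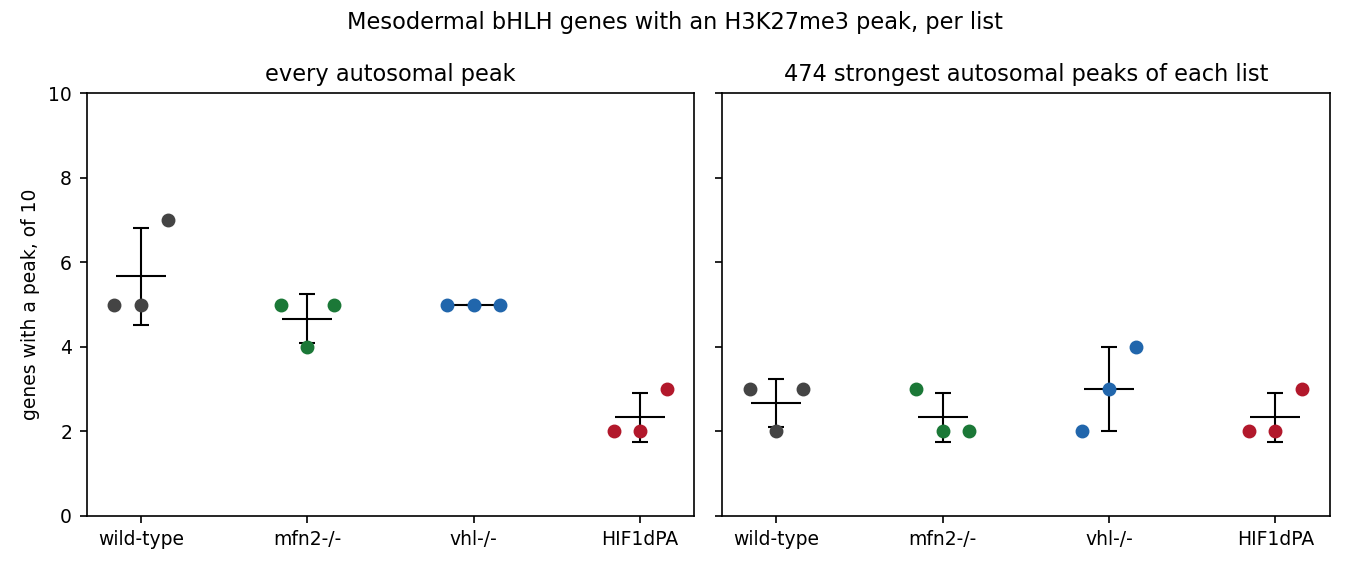
Number of the 10 mesodermal bHLH genes with an H3K27me3 peak (y axis) in each list by genotype (x axis), with every autosomal peak (left) and with the 474 strongest of each list (right); points are libraries, bars mean ± SD. With every peak the HIF1dPA lists held 2 or 3 genes and the others 4 to 7, and with equal numbers all lists held 2 to 4.

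Equal numbers of peaks were compared by taking the 474 strongest of each list, the length of the shortest. Then 2.67 ± 0.577 of the genes had a peak for wild-type, 2.33 ± 0.577 for mfn2-/-, 3 ± 1 for vhl-/- and 2.33 ± 0.577 for HIF1dPA, and these ranges overlap. The genes were not the same ones. Hand2 was kept in all 9 lists outside HIF1dPA, whereas Twist1 was kept in 0 wild-type, 1 mfn2-/- and 1 vhl-/- list and in all 3 HIF1dPA lists. The weakest peak kept scored 105.6 to 116 in wild-type lists and 50.03 to 50.42 in HIF1dPA lists, the score being −10 × log10 of the p-value from the authors' peak caller.

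Hand2 carried the longest covered length (bases under its peaks) of the 10 genes in 7 of 12 lists. Hand2 (chr8:57320983-57324517, plus strand) was covered over 9820, 9293 and 8534 bases in wild-type lists, 4773, 8697 and 9545 in mfn2-/- lists, 9462, 11046 and 12430 in vhl-/- lists, and 0, 1023 and 1444 in HIF1dPA lists. The wild-type, mfn2-/- and vhl-/- values overlapped, and all 9 lay above the HIF1dPA values. By assignment, the mean was 9216 ± 646 bases in wild-type and 10979 ± 1485 in vhl-/-, a difference of 1764 bases (exact permutation test, two-sided, p = 0.2). A further peak of 1816 bases in the first vhl-/- list, within 3000 bases of Hand2, was assigned to Hdnr and is not counted. With it, every vhl-/- list would lie above every wild-type list. Counted by position, which adds it, the exact permutation p across genotypes was 0.000325 (adjusted 0.0980), beside 0.00169 by assignment.

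Its peaks ran from upstream of the gene into it. Of 76 Hand2 peaks, 61 lay upstream of the start site and 15 downstream, and none of the 12 lists had a peak over the start itself. A stretch of 1220 bases, from 172 before to 1047 after the start, was free of peaks in every list, and it contains most of the promoter printed above, of which at most 78 bases were covered in 1 list. The most shared bases, 406 of them at chr8:57310800-57311205, lay 10183 to 9778 bases upstream and were covered in 10 lists. Of all bases under any Hand2 peak, 26.7% were covered in 6 or more lists, the highest share among the 5 genes with a peak in 3 or more lists.

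**Figure D2:**
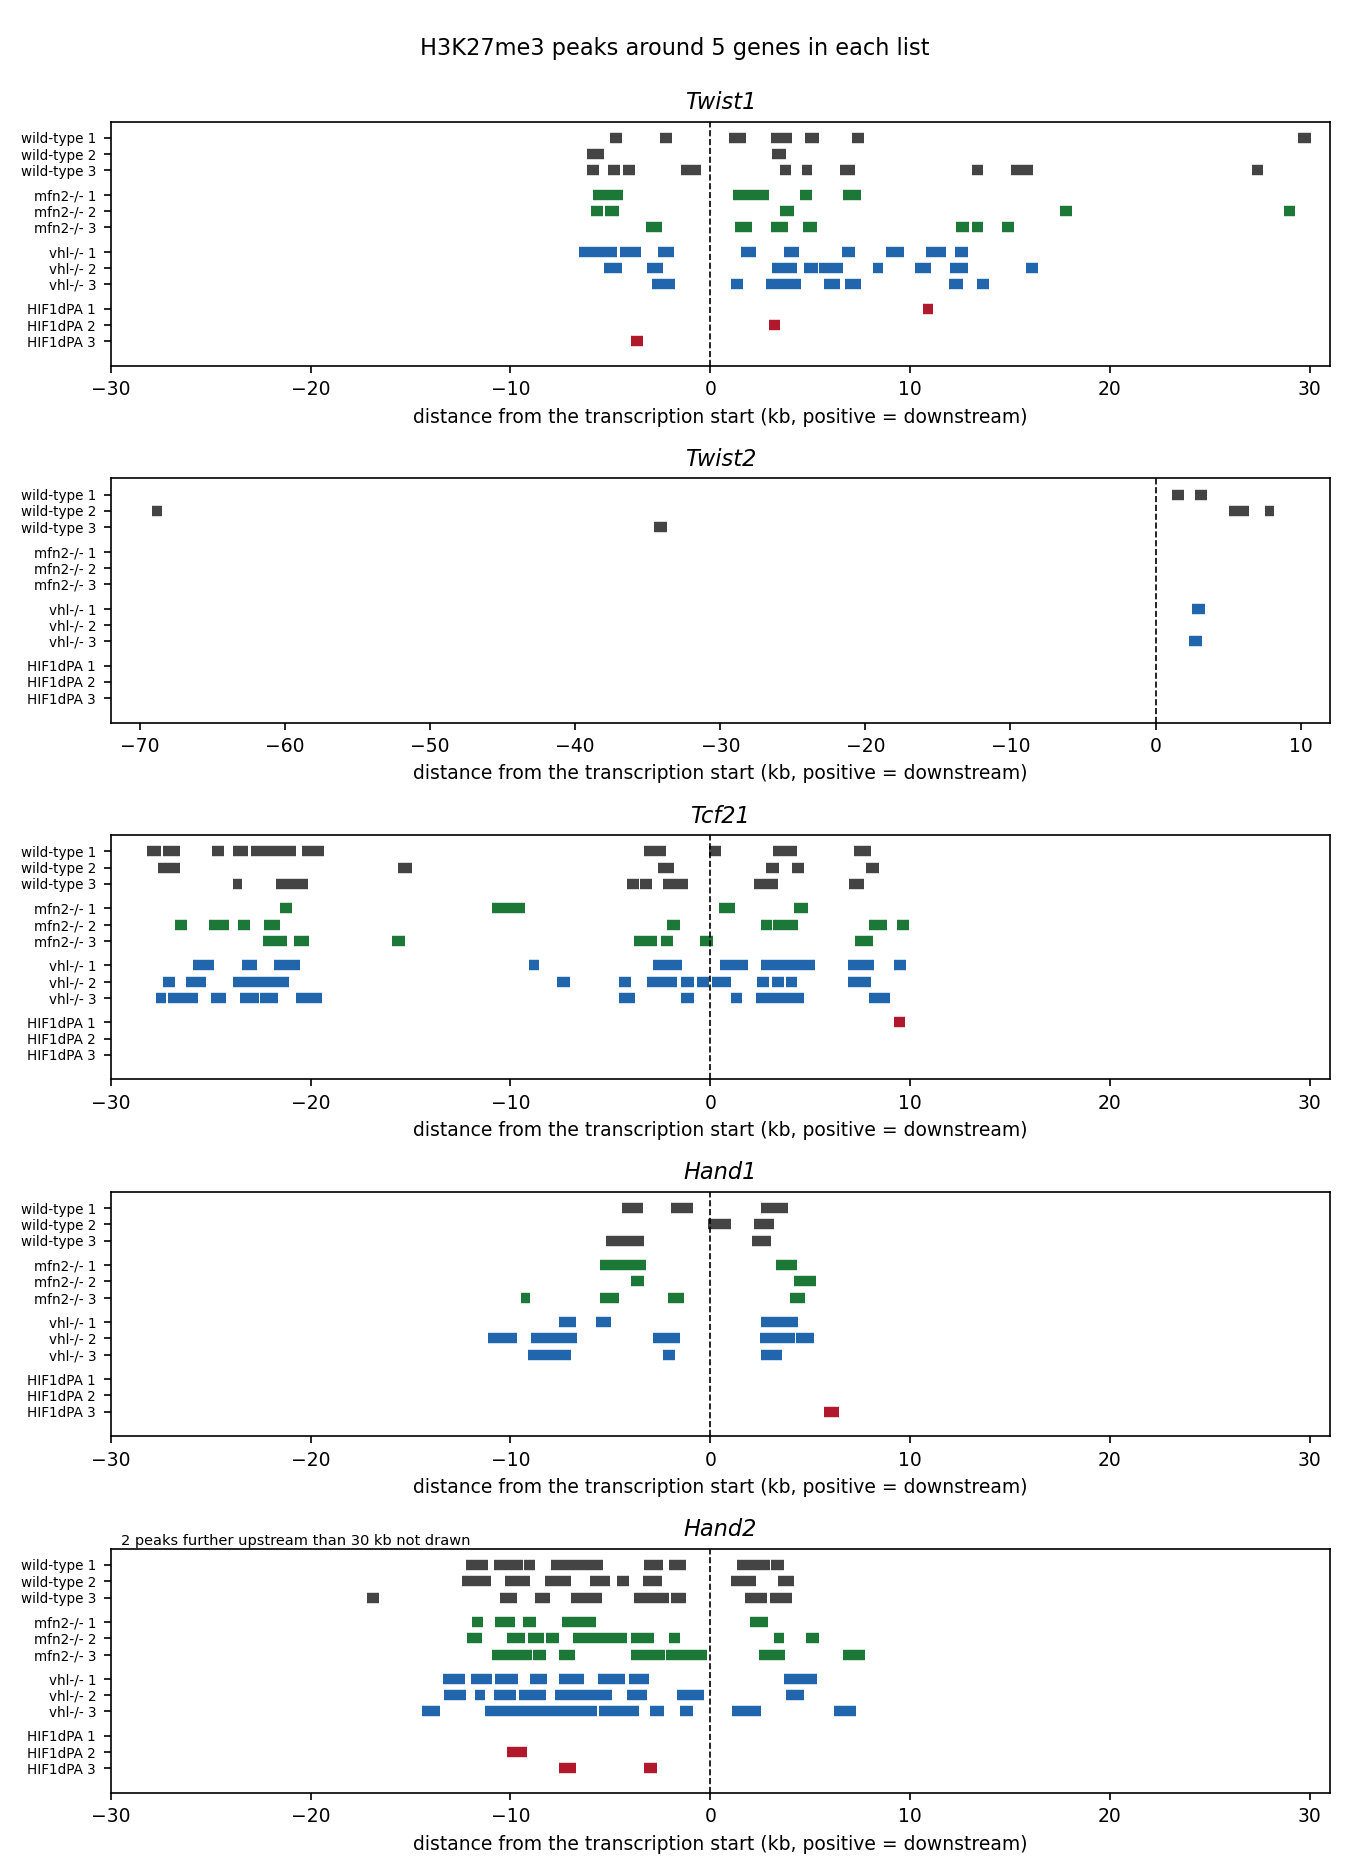
H3K27me3 peaks (horizontal bars) of Twist1, Twist2, Tcf21, Hand1 and Hand2 in each of the 12 lists (rows, colored by genotype) by distance from the transcription start in kb (x axis, dashed line at the start). At Hand2, Twist1 and Twist2 no bar crosses the start, whereas 2 lists have one across the start of Tcf21 and 1 across the RefSeq start of Hand1. At Hand2, 2 peaks lie beyond the left edge.

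Hand1 had fewer peaks than Hand2, 29 against 76 over the 12 lists. Hand1 (chr11:57828713-57832147, taken as minus strand from the authors' promoter classes) was covered over 3529, 2204 and 2913 bases in wild-type lists, 3340, 1764 and 2919 in mfn2-/- lists, 3374, 7707 and 3772 in vhl-/- lists, and 0, 0 and 742 in HIF1dPA lists. The second vhl-/- list stood above all others, the third lay above the highest wild-type list, and the first lay within the wild-type range. Distances are from its RefSeq start, although peaks 1329 and 1519 bases upstream of it were classed by the authors as within 1 kb of a start. The most shared stretch of Hand1, 515 bases at chr11:57829083-57829597, lay 2550 to 3064 bases downstream of the RefSeq start and was covered in 6 lists. Of its 29 peaks, 51.7% were of the authors' promoter class (within 3 kb of a start), beside 50.4% of all autosomal peaks.

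Most Tcf21 peaks fell into 2 domains, and by the authors' assignment it was the member at which every vhl-/- list exceeded every wild-type list. Tcf21 (chr10:22817263-22820143, minus strand) was covered over 9861, 4418 and 6489 bases in wild-type lists, 3750, 6912 and 5885 in mfn2-/- lists, 11100, 12249 and 11358 in vhl-/- lists, and 570, 0 and 0 in HIF1dPA lists. The vhl-/- mean of 11569 ± 603 was 4646 bases above the wild-type mean of 6923 ± 2747 (exact permutation test, two-sided, p = 0.1, the smallest that 3 against 3 can give). Every vhl-/- list was above every wild-type list at 3.17% of the 4697 genes with a peak in either genotype, and at 1 of the 7 members among them. Hand2 would join Tcf21 here if the peak assigned to Hdnr were counted. The mfn2-/- mean of 5516 ± 1613 differed from wild-type by −1407 bases (exact permutation p = 0.5).

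The first Tcf21 domain lay around the gene, from −5 to 11 kb of its start. There, wild-type lists had 3593 ± 897 covered bases, mfn2-/- 2929 ± 1294, vhl-/- 6678 ± 1103 and HIF1dPA 190 ± 329. The second lay 18 to 29 kb upstream, with 3104 ± 2684, 1836 ± 1142 and 4500 ± 1398 bases in the first 3 genotypes and none in any HIF1dPA list. The limits of both domains were set after the peaks were seen, and peaks between them are in neither sum. These came to 225 ± 390 bases in wild-type, 750 ± 816 in mfn2-/- and 392 ± 350 in vhl-/- lists, and in the first mfn2-/- list they were 1619 of its 3750 bases. Unlike at Hand2, Twist1 and Twist2, 2 lists had a peak over the Tcf21 start itself, and 3 lists reached the promoter printed above, which was covered over all 300 bases in 1 of them.

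Twist1, which restrains muscle differentiation, was the member with a peak in every list. Twist1 (chr12:33957671-33959831, plus strand) was covered over 4985, 1566 and 6883 bases in wild-type lists, 4788, 3149 and 5060 in mfn2-/- lists, 8417, 7754 and 6478 in vhl-/- lists, and 501, 533 and 612 in HIF1dPA lists. The wild-type range contained the mfn2-/- range and reached into the vhl-/- range, and the HIF1dPA lists each had 1 short peak. The vhl-/- mean of 7550 ± 986 was 3072 bases above the wild-type mean of 4478 ± 2695 (exact permutation p = 0.2). It also lay above the mfn2-/- mean of 4332 ± 1034 without overlap (exact permutation p = 0.1), as at Tcf21 and Hand1. The mfn2-/- lists were shorter in general, and the share of all genes with such a gap was not counted.

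The Twist1 peaks lay on both sides of the gene, from 6558 bases before to 30040 bases after its start, and 79.4% of the 63 were of the distal intergenic class. None covered the 1406 bases from 462 before to 943 after the start, which hold the whole promoter window. Their places varied from list to list. Only 6.08% of the bases under any Twist1 peak were covered in 6 or more lists, and the 3 HIF1dPA peaks lay at 3 different places, 3380 bases upstream and 2960 and 10633 bases downstream. Pairs of lists from the 3 other genotypes shared 16.4% of their joint Twist1 bases within a genotype and 17.7% between genotypes.

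**Figure D3:**
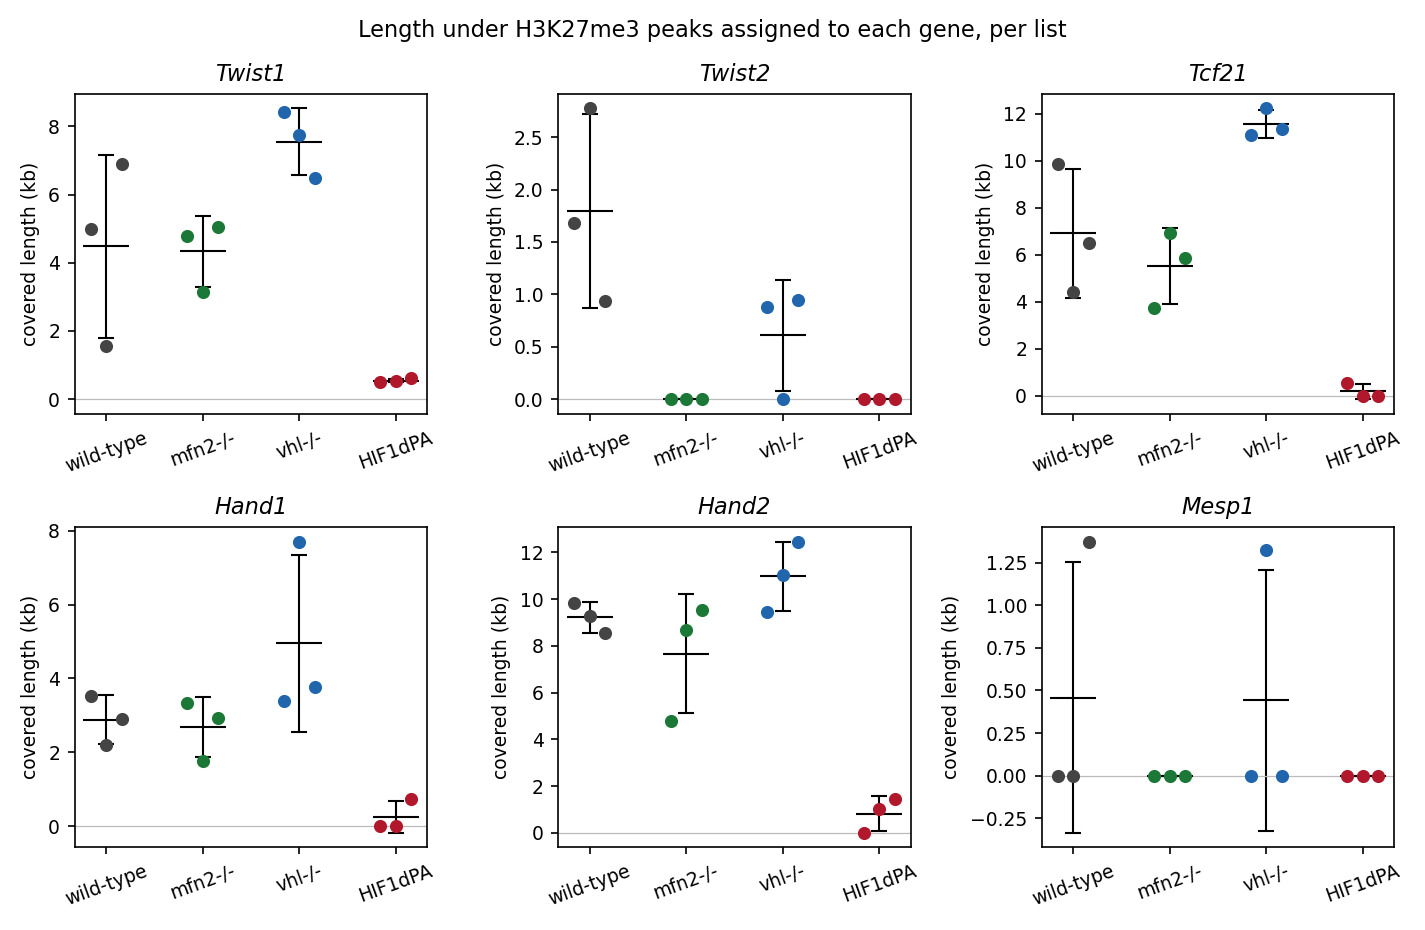
Covered length in kb (y axis) of 6 genes in each H3K27me3 list by genotype (x axis); points are libraries, bars mean ± SD over 3. Twist1, Tcf21, Hand1 and Hand2 have all HIF1dPA points below all others, Twist2 has points above 0 in wild-type and vhl-/- only, and the 3 vhl-/- points of Tcf21 sit above the 3 wild-type points.

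Twist2, the close relative of Twist1, was the member with a peak in every wild-type list and in no mfn2-/- or HIF1dPA list. Twist2 (chr1:91801461-91848034, plus strand) was covered over 1677, 2777 and 937 bases in the wild-type lists, 883, 0 and 943 in vhl-/-, and 0 in each mfn2-/- and HIF1dPA list. Presence in each wild-type list with absence from each mfn2-/- list was found at 2.17% of 4238 genes, 1 of 8 members among them. The same against HIF1dPA was found at 10.1% of 3826 genes, again with 1 of 7 members. The reverse held for 0.212% and 0.0261% of genes and for no member, and between wild-type and vhl-/- for 0.532% (wild-type only) and 0.788% (vhl-/- only) of 4697 genes and no member. By covered length, every wild-type list was above every mfn2-/- list at 5.71% of genes, of the members again at Twist2.

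The wild-type Twist2 peaks did not lie at 1 place. The first list had its peaks 1133 and 2729 bases after the start, the second 5031 and 7537 bases after it plus 1 peak 68449 bases before it, and the third a single peak 33644 bases before it. The vhl-/- peaks, 2502 and 2287 bases after the start, overlapped the first wild-type list, and 501 bases at chr1:91804190-91804690 were covered in 3 lists, the most at this gene. With promoter-class peaks alone, Twist2 had a peak in 1 wild-type and 2 vhl-/- lists, so the presence of a peak in all 3 wild-type lists rested on distal and intronic peaks. Among the 474 strongest peaks Twist2 appeared in 1 wild-type list. Pdgfra, the marker of fibroblast-like cells named above, was the 1 of those 8 genes with a peak in 3 or more lists. It was covered over 3468 ± 1562 bases for wild-type, 541 ± 539 for mfn2-/-, 3313 ± 1850 for vhl-/- and 172 ± 298 for HIF1dPA. Twist2 had 1797 ± 926 bases for wild-type and 609 ± 528 for vhl-/-. The part of other cell types in the Twist2 values was not tested.

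The members with few peaks were marked close to their genes. Mesp1 (chr7:79792241-79793590, minus strand) had 1 peak of 1375 bases in the third wild-type list and 1 of 1328 bases, across its start, in the second vhl-/- list. Its neighbor Mesp2 (chr7:79810727-79813431), 17.1 kb away, had none. Tcf15 (chr2:152143056-152149097) had 1 peak of 597 bases in the third wild-type and 1 of 757 bases in the third mfn2-/- list. Msc (chr1:14753344-14756089) had 1 of 431 bases in the first mfn2-/- list, with 2 more within 3000 bases of the gene assigned to Gm9947, of 1000 bases in the third vhl-/- list and 544 bases in the first HIF1dPA list. Scx (chr15:76457411-76459468) had no peak within 3000 bases under any gene's name.

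Peak scores grow with depth, so the strongest peak of each gene is given as a rank within its own list. A gene with many peaks has more of them that can rank high, and the lists differ in length. The strongest Hand2 peak stood at the 91.9th to 99.4th percentile of its list's autosomal peaks in all 11 lists that had one, HIF1dPA included (93.3 and 93.5). The HIF1dPA values were ranks 34 and 33, with scores of 93.88 and 86.39. In the third vhl-/- list the strongest Hand2 peak was the 22nd strongest of 3626 peaks, with a score of 338. Tcf21 stood at percentile 61.8 to 98.5, with all 3 vhl-/- lists between 97.9 and 98.5. Hand1 stood at 72.0 to 94.6. Twist1, present in every list, ranged most widely, from 8.02 in the first HIF1dPA list to 96.3 in the third vhl-/- list, and the Tcf15 and Msc peaks stood at 16.2 to 42.2.

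**Figure D4:**
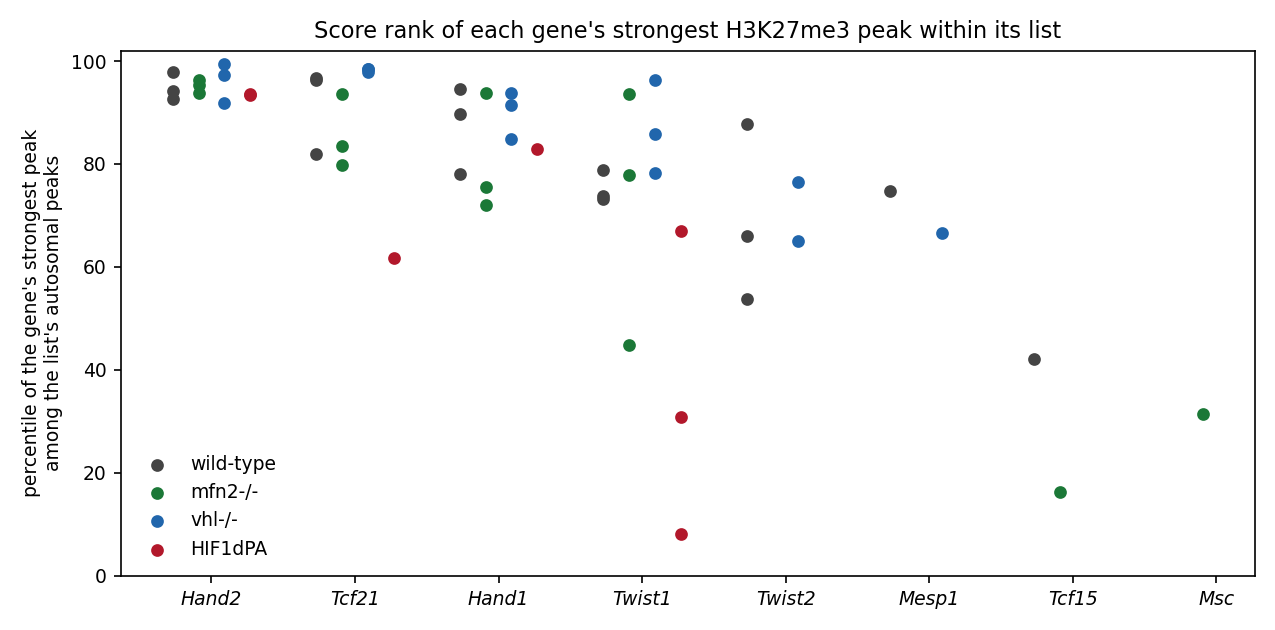
Percentile of each gene's strongest H3K27me3 peak among the autosomal peaks of the same list (y axis) for the 8 genes with a peak (x axis); each point is a library with a peak, colored by genotype. Hand2 stays above 91 in every list that has a peak, whereas Twist1 spreads from 8.02 to 96.3.

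Covered length was tested over all 5469 autosomal genes with an exact permutation test across the 4 genotypes. No gene passed a Benjamini-Hochberg adjusted p under 0.05 (0% of genes), and 594 (10.9%) had an unadjusted p under 0.05, among them 5 of the 8 members tested. These shares are not alike, since 43.8% of the 5469 genes had a peak in 1 list only and could not reach that threshold. The 5 members had a peak in 5 to 12 lists. The adjusted p was 0.101 for Tcf21, 0.130 for Hand1 and for Hand2, 0.182 for Twist1 and 0.214 for Twist2. With the 2183 genes that had a peak in at least 3 lists, 60 genes passed and Tcf21 was among them (exact permutation, adjusted p = 0.0405), while Hand1 and Hand2 stood at 0.0520. Without the HIF1dPA lists the unadjusted exact permutation p was 0.025 for Tcf21, 0.0286 for Twist2, 0.154 for Twist1, 0.0964 for Hand1 and 0.0929 for Hand2, and all adjusted values were 1. Twist1, Hand1 and Hand2 thus had an unadjusted p under 0.05 only with the short HIF1dPA lists included.

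Every wild-type list was above every HIF1dPA list in covered length at 18.1% of 3826 genes and at 5 of 7 members, Twist1, Twist2, Tcf21, Hand1 and Hand2. The ratio of the HIF1dPA to the wild-type mean was 0.123 at Twist1, 0.0274 at Tcf21, 0.0858 at Hand1 and 0.0892 at Hand2, beside a median of 0.0753 over the 366 genes marked in all 9 other lists. For vhl-/- the ratio was 1.69 at Twist1, 1.67 at Tcf21, 1.72 at Hand1 and 1.19 at Hand2, beside a median of 1.22. For mfn2-/- it was 0.967, 0.797, 0.928 and 0.832, beside a median of 0.821. These ratios share the wild-type lists and were not tested. Every vhl-/- list lay above the wild-type mean and every HIF1dPA list below it at 4 of 7 members, at 6.41% of 4962 genes and at 33.9% of the 366. With mfn2-/- lists in place of HIF1dPA this held at 1 of 8 members (Tcf21), at 2.24% of 5224 genes and at 9.29% of the 366.

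Wild-type was also set against the 9 mutant lists together. No gene passed (0% at an adjusted p under 0.05, exact permutation test, 220 arrangements), and 6.03% had an unadjusted p under 0.05. Of the members this was Twist2, with a mutant minus wild-type difference of −1594 bases (unadjusted exact permutation p = 0.00909, adjusted p = 0.718). The other members tested had an unadjusted p of 0.25 or more.

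The members' peaks differed in position from gene to gene. Of all 259, 65.3% were of the distal intergenic class and 31.3% of the promoter class, beside 31.4% and 50.4% of all 30979 autosomal peaks. The distal share came to 79.4% at Twist1, 69.2% at Tcf21 and 67.1% at Hand2, whereas Hand1 had 41.4% and Twist2 25%, and the peaks of Tcf15, Msc and Mesp1 were all of the promoter class. The members' peaks made up 0.771% ± 0.119 of the peaks in wild-type lists, 0.937% ± 0.249 in mfn2-/-, 0.866% ± 0.0908 in vhl-/- and 0.545% ± 0.227 in HIF1dPA, and these ranges overlapped.

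Counting promoter-class peaks alone changed the order of genotypes at the Hand genes. Hand2 then had 3446 ± 1290 bases for wild-type, 2228 ± 1702 for mfn2-/- and 1391 ± 1412 for vhl-/-, and Hand1 2882 ± 663, 1239 ± 908 and 1750 ± 1321. Tcf21 kept its order, with 2050 ± 906, 1463 ± 843 and 4467 ± 980. The spreads of wild-type and vhl-/- overlapped at both Hand genes and did not at Tcf21. How many of all genes had such a gap with promoter peaks was not counted. With these peaks, the 9 mutant lists minus wild-type gave −1886 bases at Hand1 (unadjusted exact permutation p = 0.0273) and −2172 at Hand2 (0.0364). Both had an adjusted p of 0.753, and 183 genes had an unadjusted p under 0.05. The share of tested genes that these make up was not counted, so the members cannot be set against it.

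Genes that work with the members were marked unevenly. The 3 E-protein genes (Tcf3, Tcf4 and Tcf12), the dimer partners, had no peak in any list. Of the 4 Id genes, whose products sequester E-proteins, Id4 had a peak in 9 lists and Id1 in 1. Of the 4 myogenic bHLH genes (Myod1, Myf5, Myf6 and Myog), Myf5 had a peak in 1 list and the others in none. Of 9 related bHLH genes, 5 had a peak in 3 or more lists, namely Tal1 and Tcf24 (11 each), Ferd3l (9, its gene 28.4 kb from Twist1), Ptf1a (6) and Bhlha9 (5). None of the genes in these lists passed the adjusted test.

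Of 15 genes that act beside the members in mesoderm, 6 had a peak in 3 or more lists. Gata4, a partner of Hand2 in the heart, had one in all 12, with 15052 ± 3267 covered bases for wild-type, 13738 ± 249 for mfn2-/-, 19470 ± 2151 for vhl-/- and 2035 ± 1303 for HIF1dPA. Tbx5 (10 lists), Ripply2 (8), Mkx (7), Meox2 (4) and Lfng (3) followed, and none passed the adjusted test. The median number of lists with a peak was 3.5 over the 10 members and 2 over all genes with at least 1 peak. These sets are unlike, since the first includes Mesp2 and Scx, which had no peak.

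**Figure D5:**
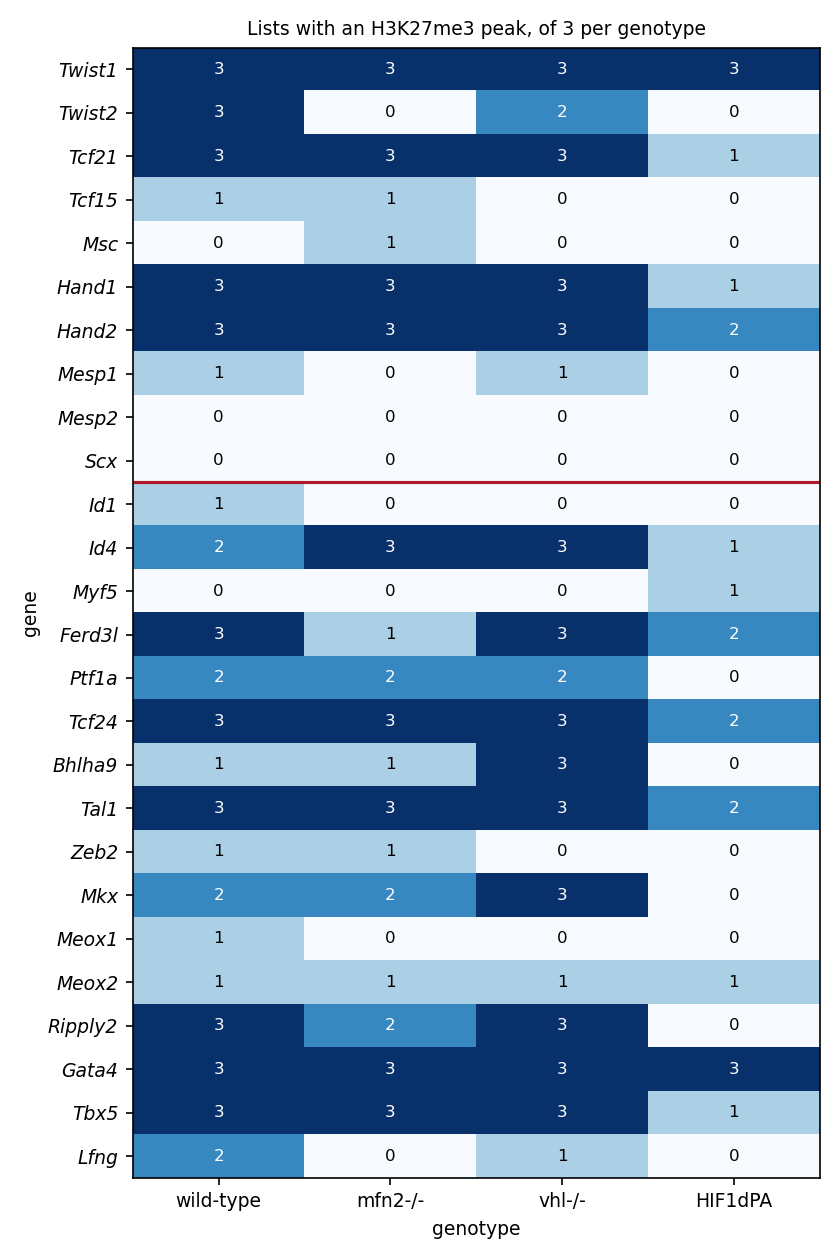
Number of lists (of 3 per genotype, columns) with an H3K27me3 peak for the 10 mesodermal bHLH genes (above the line) and for the related genes that had any peak (below it). Twist1 and Gata4 have 3 in every column, and Twist2 reads 3, 0, 2 and 0.

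By covered length over the 12 lists, the autosomal genes most like Twist1 were Rnf220 (Pearson r = 0.971), Gm53 (0.969) and Rims2 (0.951), and those most like Hand2 were Evx2 (0.949), Cbx8 (0.939) and Nkx2-1 (0.938). These values are descriptions over 12 lists that share the short HIF1dPA lists. Among the members, Tcf21 and Hand2 were most alike (r = 0.907, and 0.753 over the 9 lists without HIF1dPA), and Twist1 and Hand2 fell from 0.772 to 0.293.

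H3K9me3, the mark of constitutive heterochromatin profiled in the same genotypes, was found at 1 of the 8 members that had an H3K27me3 peak, beside 21.7% of the 5469 genes with one, and at 1 of the 4 members among the 366 genes, of which 17.8% had one. Of 17669 autosomal H3K9me3 peaks in 12 lists, 2 were assigned to a member. Both belonged to Twist1 and lay far downstream, 62.2 kb from its start in the second mfn2-/- list and 52.7 kb from it in the first HIF1dPA list, and no wild-type list had one.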

How the data were processed

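ChIP-seq of H3K27me3 and H3K9me3 gave 24 peak lists, 1 per library, so replicates were not pooled. A wild-type input library was not used here. Per the labels, BWA 0.7.5, MACS and deepTools 3.5.0 were used with mm10, and the caller's version was not given in the sources used here. The deposited score is −10 × log10 of the p-value as the authors' caller wrote it, with a lowest value of 50. From each list the bases under a gene's autosomal peaks were summed. Exact permutation tests over libraries were run on those lengths: the sum of squares between the 4 genotypes (369600 arrangements, 15400 distinct, smallest p 6.49e-05) and wild-type against 9 mutant lists (220 arrangements, two-sided), adjusted by Benjamini-Hochberg over 5469 genes, and pairs of genotypes (20 arrangements, smallest p 0.1). Genes were counted as separating when all 3 lists of 1 genotype and none of the other had a peak. Python 3.11.15, numpy 2.4.6 and pandas 2.3.3 were used, and the tests were checked on simulated data. The 10 genes and the lists of related genes were chosen with earlier results of these data known, and all 10 are named whatever their values. Related genes are named where a peak occurred in at least 3 lists, with those below that named as exceptions after their values were seen. The fast-fiber and other cell type lists were added later. A gene of the mesoderm list is not reported here. RefSeq tables (GRCm38.p6) gave gene positions and 6 of the 10 promoters.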

Additional observations from a re-analysis of the deposited data

Results flagged for a closer look

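At 4 members every vhl-/- list lay above the wild-type mean of covered length and every HIF1dPA list below it, which was also so at 33.9% of the 366 genes with a peak in all 9 other lists. The HIF1dPA mean differed from the vhl-/- mean by −7001 bases at Twist1, −11379 at Tcf21, −4704 at Hand1 and −10157 at Hand2. At Tcf21 every mfn2-/- list also lay below the wild-type mean, and the vhl-/- mean was 6053 bases above the mfn2-/- mean. Each of these 5 differences had an exact permutation p of 0.1, the smallest that 3 against 3 can give. The HIF1dPA lists were the shortest. With the 474 strongest peaks of each list, compared here after seeing the data, the HIF1dPA minus vhl-/- difference was −48.3 bases at Twist1 (exact permutation p = 1), −4043 at Tcf21 (p = 0.1), −1053 at Hand1 (p = 0.4) and −4131 at Hand2 (p = 0.1), and the vhl-/- minus mfn2-/- difference at Tcf21 was 3022 (p = 0.1). Equal numbers of peaks do not make covered length equal between lists. The kept peaks fell on a mean of 325 genes per vhl-/- list and 415 per HIF1dPA list. Their lowest score was at least 119.7 in vhl-/- lists and at most 50.42 in HIF1dPA lists. The share of all genes with such gaps was not counted.

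H3K9me3 peaks at Twist1 lie outside the H3K27me3 comparisons, with a score of 57.25 in the second mfn2-/- list and 56.37 in the first HIF1dPA list, at the 32.3rd and 41.2nd percentile of their lists. No wild-type H3K9me3 list had a peak at a member.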

How the results depend on the processing

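No gene passed the adjusted tests under any alternative run but 1. Limiting the test across genotypes to genes with a peak in at least 3 lists brought 60 calls, fewer genes being tested. With a replicate block 0 genes were called in both tests, and Tcf21 had an exact permutation p of 0.00694 across genotypes. The shared replicate numbers do not show a pairing, since deviations of same-numbered lists correlated between −0.0501 and 0.0612. The mutant-minus-wild-type difference in bases turned positive at Twist1 with a score of at least 100 (839), equal numbers of peaks (751.1), promoter peaks (273) and without the HIF1dPA lists (1463), where Tcf21 (1620), Hand1 (931) and Hand2 (109.8) also turned. Hand1 turned at a score of at least 100 (3.78). Leaving out 1 library gave −1790 to 868 at Twist1 (positive without wild-type replicate 3 or any 1 HIF1dPA list), −2417 to 305 at Tcf21 and −893 to 70.3 at Hand1 (positive without wild-type replicate 1, and Hand1 also without HIF1dPA replicate 1 or 2), −540 to 148 at Mesp1 and −214 to 84.1 at Tcf15 (positive without wild-type replicate 3), none of them called.

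At a score of at least 100, a threshold that is not equal between lists of unequal depth, the genes with a peak per list were 2.67 for wild-type, 2.33 for mfn2-/-, 3.67 for vhl-/- and 0 for HIF1dPA. With equal numbers of peaks they were 2.67, 2.33 and 3 in the first 3 genotypes. With promoter peaks they were 4.67 in vhl-/- and 0.667 in HIF1dPA. By gene body (peaks within 3000 bases of the gene, chosen after seeing the data) they were 5.33 in vhl-/- and 1.33 in HIF1dPA. Genes in all wild-type and no mfn2-/- list numbered 10 at a score of at least 100, 4 with equal numbers and 59 with promoter peaks, and 128 to 218 with 1 library left out. The reverse gave 202 with all chromosomes, 4 at a score of at least 100, 4 with promoter peaks, and 14 to 34 with 1 library left out. Against vhl-/- the wild-type count was 3, 5 and 16 under those 3 alternatives and 38 to 87 with 1 library left out, and the vhl-/- count 13 at a score of at least 100, 6 with equal numbers and 60 to 108. Against HIF1dPA the wild-type count was 137 and 28 under the first 2 and 454 to 636, and the HIF1dPA count 0, 6 and 0 and 1 to 5. Twist2 was not among the genes in all wild-type and no mfn2-/- list at a score of at least 100, with equal numbers or with promoter peaks. The cause of these shifts was not tested. Depth is unknown, so no floor of detection could be given.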
